A study of Mus musculus with 16 samples.

Results

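Mitosis and kinetochore genes were described on 16 Affymetrix arrays of mouse embryonic stem cell RNA. The list holds 43 genes that enter, control or carry out cell division. Its members were all probe sets whose platform annotation names one of these genes as the only gene, by its current or former symbol. The rule found 92 of the 45101 probe sets of the table, from 42 of the 43 genes, where the table names 18194 genes in all. No probe set listed here names Ccnb1 alone, so cyclin B1 was not analysed here.

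All arrays carried RNA of E14tg2a, an established feeder-independent mouse embryonic stem cell line. For the amplified group (n = 8), total RNA was diluted to 10 pg, about what a single cell holds, and its cDNA was amplified by PCR with the V1V3 method, designed for single cells. In the nonamplified group (n = 8), 5 µg of the undiluted RNA was labelled directly. The comparison addresses how well the amplification keeps measured levels. Both groups came from the same RNA, so a difference between them is one of measurement and not of the cells, and the replicates are technical: p-values measure only the spread between arrays. Precision is limited by having 8 arrays per group.

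In mitosis, cyclin A and cyclin B bind the kinase Cdk1 and drive the cell from G2 into division. Kinetochores, assembled on centromeric nucleosomes, attach chromosomes to spindle microtubules. The spindle checkpoint holds the ubiquitin ligase APC/C and its activator Cdc20 in check until all are attached, after which securin and cyclin B are destroyed and separase splits the sister chromatids. Embryonic stem cells divide quickly, with a short G1 phase, and so express many of these genes.

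Promoters of mitotic genes are known for a cell cycle homology region (CHR), bound by the DREAM and MuvB complexes, downstream of CCAAT boxes bound by NF-Y. These motifs were a property of the members that the choice of genes did not use. RefSeq promoter windows of GRCm38.p6, from 250 bases before to 50 bases after a start, were at hand for 37 of the 43 members, with 42 windows. A CHR (TTTGAA or TTCGAA, either strand) was present in 27 of the 42 windows (64.3%) and in 19.2% of all 32851 windows. CCAAT, on either strand, was present in 33 of the 42 (78.6%) and in 37.4% of all windows. Both occurred in 25 of the 42 (59.5%), against 7.52% of all windows. The other mitotic genes described at the end, with 83 windows, lay between, with a CHR in 36.1%, CCAAT in 56.6% and both in 24.1%. The members with both motifs inside the last 100 bases before a start were 6, and the 4 brightest on nonamplified arrays are shown as examples. This choice leaves out CHR matches after the start, which other members had, such as Bub1 at base 15 and Cenpa at base 17. The stretches shown therefore do not stand for all members. Each is written 5′ to 3′ on the gene's strand, ends at the base before the start, and has CHR and CCAAT matches of either strand in capitals.
Cdc20, chr4:118437344-118437443, minus strand: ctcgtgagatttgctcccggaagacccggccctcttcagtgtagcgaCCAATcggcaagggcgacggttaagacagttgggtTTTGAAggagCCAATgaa
Top2a, chr11:99024190-99024289, minus strand: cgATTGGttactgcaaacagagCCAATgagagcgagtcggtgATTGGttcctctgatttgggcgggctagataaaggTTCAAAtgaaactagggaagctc
Cdk1, chr10:69352913-69353012, minus strand: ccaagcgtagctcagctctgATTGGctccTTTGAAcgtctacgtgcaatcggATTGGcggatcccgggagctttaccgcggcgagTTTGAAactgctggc
Bub3, chr7:131560270-131560369, plus strand: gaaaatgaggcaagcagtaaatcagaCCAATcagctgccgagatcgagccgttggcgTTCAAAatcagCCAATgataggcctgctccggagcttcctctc
In these stretches CHR matches began at −18 in Cdc20, at −23 in Top2a, at −71 and −15 in Cdk1 and at −43 in Bub3, counted back from the start. No CHR match overlapped a CCAAT match in them. A CCAAT match also lay downstream of a CHR match in Cdc20 (−8), Bub3 (−32) and Cdk1 (−48). A match describes letters and is not a measured binding site.

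Intensities were used as deposited, on a linear scale with a lowest listed value of 1. The median intensity of an array lay between 33.9 and 36.7 in the amplified group and between 49.7 and 53.8 in the nonamplified group. Markers fitted the labelled cell type: 10 of 10 embryonic stem cell markers had nonamplified means of 573 or more. On amplified arrays the means of these 10 ran from 241 to 10475. They moved in both directions, with Nanog going from 1776 to 276 and Utf1 from 1814 to 8761. Of 8 fibroblast markers, 7 had nonamplified means of 82.0 or less and Fap had 282. The summed fibroblast signal rose from 530–640 to 4388–6242 on amplified arrays, nearly all of it from Fap (282 to 4996), and its part in the results was not tested. Log2 fold changes below are amplified minus nonamplified means of log2(intensity + 16), which understates the change of dim probe sets. Over all 27022 tested probe sets their median was −0.17 as deposited, −0.026 after quantile normalization, 0.045 scaled on the brighter 50% of probe sets, 0.24 centred on each array's median and −0.59 scaled on the hybridization controls. Directions were therefore read under these 5 scalings.

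Of the 92 member probe sets, 78 passed the filter on dim probe sets, and each of the 42 genes kept at least 1. The 14 that did not pass had nonamplified means of 46.2 or less. The filter, at an intensity of about 33.7, used the mean over all 16 arrays, so amplified values entered it. A Top2a probe set with a nonamplified mean of 20.2 passed through its amplified mean of 89.7. A Cenpa probe set with a nonamplified mean of 46.2 and an amplified mean of 14.8 was not tested. Among the 78, 24 (30.8%) were higher and 32 (41.0%) lower on amplified arrays at an adjusted p under 0.05 (limma, 2-sided). Over all tested probe sets 57.5% were called, 24.7% higher and 32.8% lower. The ranges of the groups lay apart for 35 member probe sets (44.9%) and for 33.6% of all. Among probe sets with a nonamplified mean of at least 300, they lay apart for 20 of 50 members and for 44.7% of all 6184. Under 300 they lay apart for 15 of 28 members (53.6%) and for 30.2% of all 20838. The higher share of the members was therefore not seen among bright probe sets. With each gene at its brightest probe set on nonamplified arrays, the 42 members split into 17 higher, 10 lower and 15 that did not pass. Of all 13660 genes, 53.7% were called, 23.8% higher and 29.9% lower. The groups lay apart for 16 members (38.1%) and for 29.8% of all genes, and the part of brightness in these shares was not tested. The median log2 fold change was 0.25 over the 42 members and −0.15 over all genes. This order turned after quantile normalization, with medians of −0.25 and −0.056. The medians were −0.17 and −0.57 on the hybridization controls, 0.46 and 0.063 on the brighter 50%, and 0.66 and 0.26 centred on the median. The split depended on the scaling and on the type of probe set. It was 6 higher and 14 lower members after quantile normalization and 11 and 13 on the hybridization controls. On the brighter 50% it was 18 and 8, and centred on the median 21 and 6. Of all 13660 genes, 3850 were higher and 3799 lower after quantile normalization, and 1723 and 5801 on the hybridization controls. For all genes the counts were 4133 and 3245 on the brighter 50%, and 5039 and 2646 centred on the median. Without _x_at and _s_at probe sets, which can match several transcripts, 12 of 41 members were higher and 17 lower. Counts over all genes were not made for that choice. Under all 5 scalings 6 members were called higher, namely Cks2, Pttg1, Espl1, Cdca8, Cenpa and Spc24, and 6 lower, namely Cdc25c, Aurka, Ttk, Ndc80, Nusap1 and Ckap2. Higher calls of Anln, Birc5, Ect2, Top2a, Cenpe and Spc25 were lost on the hybridization controls. Lower calls of Bub1b, Cenph, Mki67 and Nuf2 were lost when centred on the median, and those of Cenph and Mki67 also on the brighter 50%. Of the members not called as deposited, Bub1 and Aurkb were lower after quantile normalization and on the hybridization controls, Cenpk was lower on the latter, and Ccna2, Ccnb2 and Prc1 were higher when centred on the median, Ccnb2 also on the brighter 50%.

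**Figure D1:**
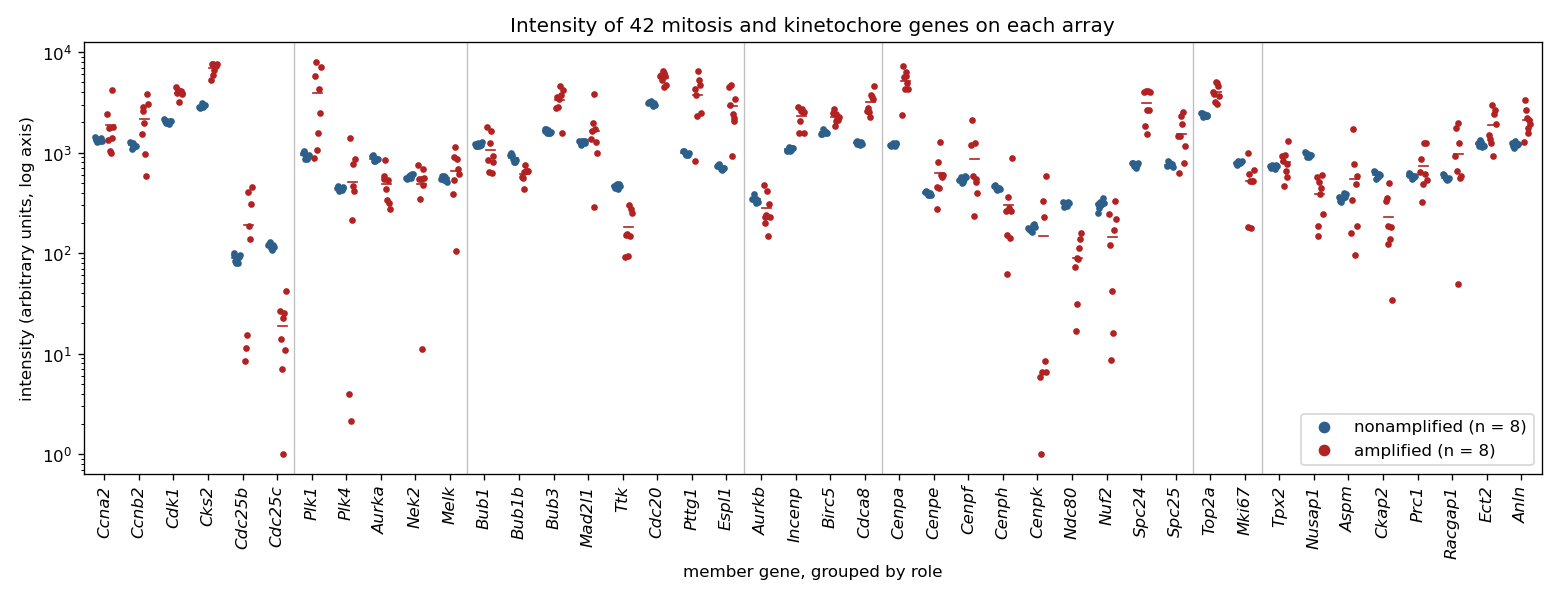
Intensity (log axis, arbitrary units) of each member gene at its probe set brightest on nonamplified arrays; each point is an array, lines are group means (n = 8 each), and grey lines separate the roles. Nonamplified points lie close together for every gene, while amplified points of Cdc25b, Plk4, Nek2, Cenpk and Nuf2 range from under 20 to over 300.

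In the core of the mitotic switch, amplified arrays lay close to each other for Cdk1 and Cks2 and far apart for the cyclins. For Cdk1 and Cks2 they all lay above the nonamplified arrays as deposited. Cdk1, the kinase that starts mitosis, measured 1947 to 2176 (median 2052) on nonamplified arrays and 3183 to 4521 (median 3927) on amplified arrays. The groups did not overlap, and the log2 fold change was 0.94 (SE 0.075, limma adjusted p = 1.43e-08), but after quantile normalization it was 0.092 and not called. Cks2, the small subunit that helps Cdk1 bind phosphorylated substrates, went from 2812–3093 (median 2913) to 5291–7667 (median 7339), again without overlap (log2 fold change 1.23, SE 0.088). A second Cks2 probe set had 0.86, also without overlap, though it was not called after quantile normalization (0.013).

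Ccna2, cyclin A2, lay between 1285 and 1441 (median 1321) without amplification and between 986 and 4215 (median 1574) with it. Amplified values fell on both sides of the nonamplified range, 4 above and 2 below, and the difference did not pass (log2 fold change 0.31, limma adjusted p = 0.272). Its other probe set, of similar nonamplified brightness (mean 1187), was called higher (0.85, SE 0.17), but neither after quantile normalization (0.087) nor on the hybridization controls (0.43). Ccnb2, cyclin B2, went from 1078–1281 (median 1169.9) to 581–3793 (median 2295) and did not pass (0.65, limma adjusted p = 0.0831). It passed without amplified replicate 5 (0.78, limma adjusted p = 0.0366) or 6 (0.89, limma adjusted p = 0.0034), the arrays with its lowest values.

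The Cdc25 phosphatases activate Cdk1 by removing inhibitory phosphates. Cdc25c measured 107 to 130 (median 118) without amplification and 1 to 41.7 (median 18.3) with it. No amplified array reached the nonamplified range (log2 fold change −2.04, SE 0.20, limma adjusted p = 1.43e-07), and the second probe set also fell (−1.57, SE 0.34). Cdc25b split the amplified arrays: replicates 1 to 3 read 8.46, 11.4 and 15.5, and the other 5 read 137 to 456, around a nonamplified range of 80.1 to 99.3. Its mean difference did not pass (0.20, SE 0.61).

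Among the other mitotic kinases the amplified arrays scattered widely, and none of the 5 had groups without overlap, against 29.8% of all genes. Plk1, which drives centrosome maturation and mitotic exit, went from 857–1042 (median 933) to 884–7973 (median 3403). Replicates 1 and 4 stayed near the nonamplified level at 884 and 1068, and replicates 3 and 8 reached 7973 and 7136. Plk1 was called higher (log2 fold change 1.61, SE 0.42, limma adjusted p = 0.00341), although not after quantile normalization (0.91). Aurka, the spindle pole kinase Aurora A, went from 833–937 (median 864) to 273–843 (median 485) and was lower on 7 of 8 amplified arrays than on any nonamplified one (−0.92, SE 0.18, limma adjusted p = 0.000438).

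Plk4, the kinase that starts centriole duplication, had the largest amplified spread of the 42 genes. Nonamplified arrays gave 416 to 469 (median 446). Amplified replicates 1 and 3 gave 3.99 and 2.13, near the floor of the table, whereas replicate 2 gave 1385 and the others 214 to 859. The difference did not pass (−0.86, SE 0.81, limma adjusted p = 0.390). Both further Plk4 probe sets were lower on all 8 amplified arrays, from 222–258 to 7.60–151 (−2.04, SE 0.32) and from 174–201 to 1–24.1 (−3.13, SE 0.16).

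Nek2, a kinase that parts the centrosomes, went from 541–613 (median 575) to 11.1–756 (median 543), where the 11.1 belonged to amplified replicate 5 and the next lowest array read 343. It did not pass (−0.63, limma adjusted p = 0.332), while a dimmer Nek2 probe set, also lowest on that array at 6.59, was called lower (−1.21, SE 0.35), though not when centred on the median. Melk, a kinase abundant in dividing progenitor cells, went from 515–580 (median 560) to 104–1142 (median 649), with a log2 fold change of −0.0044 (SE 0.34). Its low value of 104 was on the same array.

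Checkpoint genes showed both directions. Bub3, a subunit of the checkpoint complexes, went from 1555–1721 (median 1620.4) to 1572–4574 (median 3524), with 7 of 8 amplified arrays above every nonamplified one (log2 fold change 0.97, SE 0.17). It was not called after quantile normalization (0.17). Bub1, the kinase that marks centromeric chromatin, measured 1157 to 1263 (median 1192) and 630 to 1782 (median 892) and did not pass (−0.26, limma adjusted p = 0.278). Mad2l1, the Mad2 protein that binds Cdc20, went from 1191–1320.0 (median 1286) to 285–3861 (median 1502), with the 285 on amplified replicate 5, and did not pass (0.079). Ttk, the kinase Mps1 at the head of the checkpoint, fell from 430–491 (median 467) to 92.2–301 (median 154) without overlap (−1.38, SE 0.21, limma adjusted p = 2.61e-05).

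Bub1b, the checkpoint protein BubR1, had a pair of probe sets of like brightness that disagreed. One fell from 806–987 (median 866) to 437–757 (median 649) and the other rose from 756–906 (median 865) to 1018–1729 (median 1409), each without overlap between groups. The log2 fold changes were −0.52 (SE 0.10) and 0.69 (SE 0.10). The first was not called when centred on the median, and the second neither after quantile normalization (0.024) nor on the hybridization controls (0.27).

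Cdc20, the target of the checkpoint, had 3 tested probe sets. The brightest rose from 2937–3243 (median 3093) to 4462–6560.1 (median 5799.5; log2 fold change 0.84, SE 0.086, limma adjusted p = 2.96e-07), although after quantile normalization the value was −0.017. The others fell from 2026–2435 to 870–1982 (−0.85, SE 0.13) and from 825–997 to 394–800 (−0.47, SE 0.13), again without overlap. The smaller of these was not called when scaled on the brighter 50% or centred on the median.

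Securin and separase, the pair that controls the split of sister chromatids, were both higher at their brightest probe sets. Pttg1, securin, went from 940–1045 (median 974) to 821–6494 (median 4063); amplified replicate 1 gave the 821 and the other 7 exceeded every nonamplified array (log2 fold change 1.71, SE 0.32). A second Pttg1 probe set was lower, from 373–436 to 66.1–533 (−0.93, SE 0.32), though it was not called when centred on the median or scaled on the brighter 50%. Espl1, separase, rose from 668–769 (median 715) to 918–4663 (median 2708) without overlap (1.84, SE 0.26, limma adjusted p = 9.68e-06).

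Of the 4 subunits of the chromosomal passenger complex, which corrects faulty attachments and prepares cytokinesis, 3 were higher. The share of higher calls over all genes was 23.8%. After quantile normalization 1 of the 4 was higher and 2 were lower. Cdca8, borealin, rose from 1189–1304 (median 1254) to 2248–4553 (median 3129; log2 fold change 1.31, SE 0.13, limma adjusted p = 1.60e-07). Incenp, the scaffold, rose from 1032–1135 (median 1071) to 1557–2867 (median 2523; 1.05, SE 0.13) but was not called after quantile normalization (0.29). Birc5, survivin, rose from 1536–1703 (median 1602) to 1845–2744 (median 2199; 0.49, SE 0.083), whereas after quantile normalization it was called lower (−0.30). None of the 3 had overlapping groups. Aurkb, Aurora B, the kinase of the complex, did not pass at its brightest probe set, from 319–389 (median 346) to 149–477 (median 234; −0.36, limma adjusted p = 0.104), and passed without amplified replicate 1 (−0.48, limma adjusted p = 0.0158) or 5 (−0.45, limma adjusted p = 0.0379). Its other probe set, similar in nonamplified brightness, was called higher, from 282–328 to 243–786 (0.57, SE 0.19), though not after quantile normalization or on the hybridization controls.

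Incenp and Cdca8 also had dimmer probe sets that moved the other way. The third Incenp probe set fell from 169–230 to 9.88–49.1 (log2 fold change −2.47, SE 0.17) and the fourth from 65.4–85.2 to 6.26–24.3 (−1.46, SE 0.11). The third Cdca8 probe set fell from 420–519 to 122–425 (−1.14, SE 0.18), and its second (0.33) was not called as deposited, called higher when centred on the median or scaled on the brighter 50%, and called lower after quantile normalization (−0.31).

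At the centromere and kinetochore, 4 of 9 genes were higher (44.4%) and 3 lower (33.3%), against 23.8% and 29.9% of all genes. After quantile normalization 2 of the 9 were higher and 3 lower. Cenpa, the histone H3 variant that marks the centromere, rose from 1161–1255 (median 1188) to 2382–7346 (median 5299). This was the largest increase among the 42 genes (log2 fold change 2.01, SE 0.17, limma adjusted p = 3.57e-08). Cenph and Cenpk belong to the inner kinetochore network. Cenph went from 422–473 (median 443) to 61.4–878 (median 264; −0.88, limma adjusted p = 0.0419), a call that held when amplified replicate 4, 5 or 8 was left out and ended without any of the other 13 arrays (limma adjusted p up to 0.0781).

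Cenpk was nearly all or nothing. Nonamplified arrays gave 163 to 195 (median 175). Amplified replicates 4, 5 and 8 gave 328, 231 and 590, all above that range, and the other 5 gave 1 to 8.42. The difference did not pass (−1.62, SE 0.72, limma adjusted p = 0.0657) and passed without replicate 4 (−1.97, limma adjusted p = 0.0222), 5 (−1.91, limma adjusted p = 0.0330) or 8 (−2.09, limma adjusted p = 0.00826). A dim second probe set, at a nonamplified mean of 39.7, did not pass as deposited (−0.032) and was called higher after quantile normalization (0.37) and when centred on the median (0.38), and lower on the hybridization controls (−0.45).

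The Ndc80 complex, the rod that binds microtubules at the outer kinetochore, is built of 4 subunits. At the probe set brightest on nonamplified arrays, the 2 that form its microtubule end were lower and the 2 that form its inner end higher. Ndc80 fell from 286–324 (median 316) to 16.9–159 (median 88.3) without overlap (log2 fold change −1.82, SE 0.28, limma adjusted p = 3.46e-05). Nuf2, its partner, went from 251–352 (median 313) to 8.61–331 (median 144; −1.52, SE 0.49), with 7 of 8 amplified arrays below the nonamplified range; it was not called with each array centred on its median. Spc24 rose from 711–796 (median 757) to 1517–4073 (median 3347) without overlap (1.93, SE 0.20, limma adjusted p = 2.74e-07). Spc25 went from 717–822 (median 752) to 632–2545 (median 1457; 0.86, SE 0.24) and was not called after quantile normalization or on the hybridization controls. A second, dim Spc25 probe set was higher too, from 35.7–49.4 to 66.4–122 (0.80, SE 0.10).

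Cenpe and Cenpf, large proteins of the outer kinetochore, differed between their own probe sets. The brightest Cenpe probe set went from 382–413 (median 396) to 276–1263 (median 580; log2 fold change 0.52, limma adjusted p = 0.0499), a call that held without amplified replicate 1, 2 or 4 and ended without any of the other 13 arrays (limma adjusted p up to 0.0937). The other Cenpe probe set fell from 149–212 to 5.12–112 (−2.51, SE 0.28). Cenpf went from 500–579 (median 541) to 233–2115 (median 571) and did not pass (0.34), while both its dimmer probe sets fell on every amplified array, to 4.41–21.8 (−2.01, SE 0.13) and 1–32.2 (−1.86, SE 0.18).

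Top2a, the topoisomerase that untangles sister chromatids, rose at its brightest probe set from 2286–2507 (median 2333) to 3073–4992 (median 3956) without overlap (log2 fold change 0.75, SE 0.11), although after quantile normalization its value was −0.12. Of its dimmer probe sets one fell from 57.5–85.3 to 4.46–32.7 (−1.40, SE 0.16), and the other, at 8.66 to 31.2 without amplification, gave 28.0 to 175 (1.36, SE 0.32). The latter passed the filter (33.7) only through its amplified values, so its higher call is not independent of the filter. Mki67, the proliferation antigen Ki-67 that coats mitotic chromosomes, went from 747–832 (median 795) to 180–983 (median 524; −0.77, limma adjusted p = 0.0293). Amplified replicates 2 and 5 gave its lowest values, 184 and 180. Without replicate 2 it did not pass (−0.59, limma adjusted p = 0.0504).

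Spindle and cytokinesis genes held 2 higher, 2 lower and 4 uncalled members of 8. Nusap1, a microtubule-bundling protein of the spindle, fell from 896–1013 (median 943) to 148–597 (median 418) without overlap (log2 fold change −1.40, SE 0.25, limma adjusted p = 0.000129). Ckap2, another spindle protein, fell from 552–662 (median 604) to 34.3–495 (median 183; −1.61, SE 0.35). Anln, anillin of the cleavage furrow, rose from 1108–1302 (median 1201) to 1270.3–3326 (median 2026; 0.74, SE 0.16), with a value of −0.028 after quantile normalization. Ect2, the exchange factor that activates RhoA for cytokinesis, went from 1149.7–1324 (median 1207) to 922–2981 (median 1706; 0.51, limma adjusted p = 0.0418). The call held without amplified replicate 1, 2, 3 or 5 and ended without any of the other 12 arrays (limma adjusted p up to 0.0817). After quantile normalization the value was −0.24.

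The uncalled members of this group were Tpx2, Aspm, Prc1 and Racgap1. Tpx2, the activator of Aurora A, went from 683–751 (median 736) to 462–1297 (median 795; 0.085); it was called lower after quantile normalization (−0.48) and higher when centred on the median. Its second probe set fell from 236–264 to 9.44–161 without overlap (−1.91, SE 0.31, limma adjusted p = 5.21e-05), and was lower under all 5 scalings. Aspm, a spindle pole protein, went from 322–393 (median 362) to 95–1723 (median 409; 0.065, SE 0.44). The other 4 tested Aspm probe sets were all called lower, with log2 fold changes of −0.68 to −2.09, the smallest of them not when centred on the median. Racgap1, a subunit of centralspindlin, went from 536–612 (median 553) to 49.7–1958 (median 796; 0.30, SE 0.52) and passed without amplified replicate 5 (0.79, limma adjusted p = 0.0138), which gave the 49.7.

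Prc1, which bundles the microtubules of the spindle midzone, had a pair of probe sets that were close on nonamplified arrays and far apart on amplified ones. The brighter probe set measured 550 to 625 (median 589) without amplification and 323 to 1255 (median 622) with it (log2 fold change 0.20, SE 0.23). The other measured 466 to 488 (median 477) without amplification and 20.9 to 90.1 (median 38.5) with it (−3.14, SE 0.17, limma adjusted p = 6.80e-11). The second lost most of its signal on all 8 amplified arrays.

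**Figure D2:**
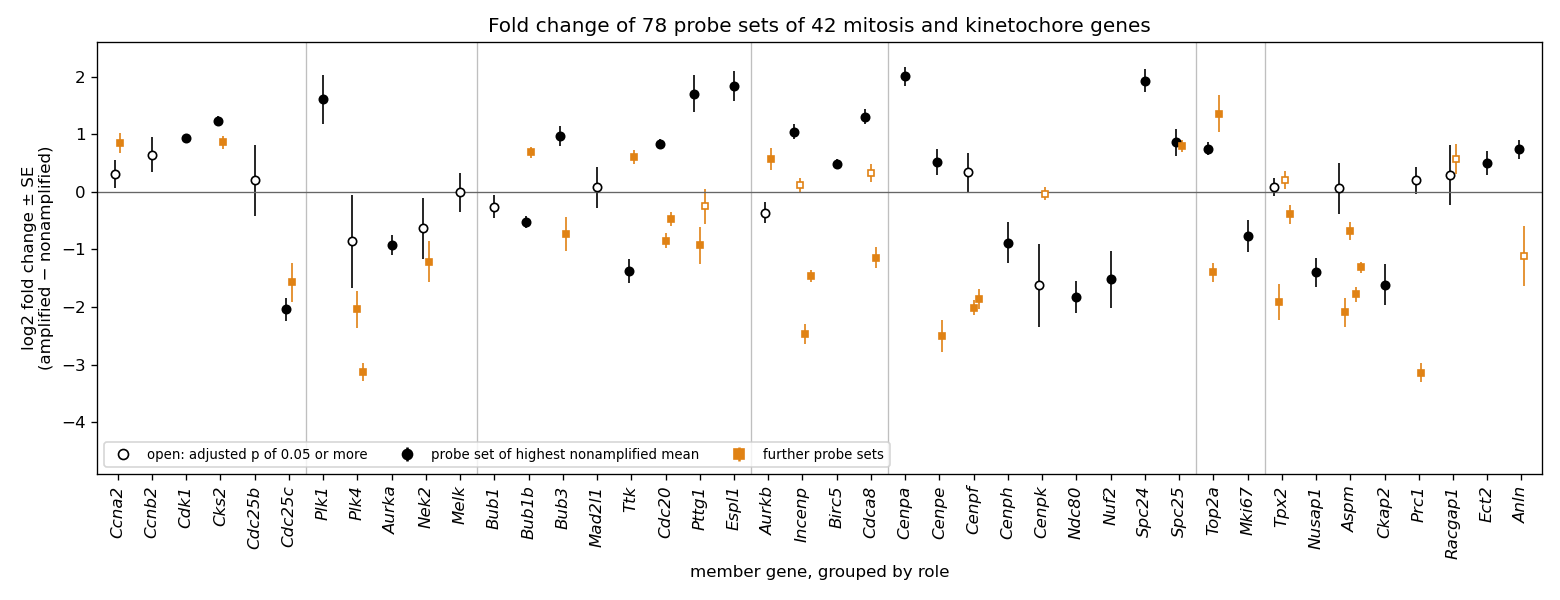
Log2 fold change (amplified minus nonamplified) with its SE for the 78 tested member probe sets; black circles are the probe set brightest on nonamplified arrays of a gene, orange squares its further probe sets, and open symbols did not reach an adjusted p under 0.05 (limma). Orange squares lie mostly below the black circles and below 0, with Prc1 and Plk4 lowest at −3.14 and −3.13.

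Probe sets of the same member therefore disagreed often. Of 23 members with at least 2 tested probe sets, 9 (39.1%) had calls in both directions, namely Bub1b, Bub3, Cdc20, Cdca8, Cenpe, Incenp, Pttg1, Top2a and Ttk. The share was 19.9% of the 5605 such genes in the whole table. After quantile normalization the members with opposite calls were 5 (21.7%, against 18.4% of all such genes), on the hybridization controls 6 (26.1% against 14.0%), and under each of the other scalings 8 (34.8% against 21.9% centred on the median and 21.1% on the brighter 50%). Tpx2 had opposite calls under 3 of the scalings, though not as deposited. The median range of log2 fold changes within a gene was 1.84 for the members and 1.35 for all such genes, and it reached 3.51 in Incenp. The probe set brightest on nonamplified arrays also had the highest log2 fold change in 14 of the 23 members (60.9%) and in 39.6% of all such genes. Of the 36 further member probe sets 7 were higher and 22 lower (median −0.89), while of the 9169 further probe sets of all genes 1963 were higher and 3670 lower (median −0.36). The members differ from all genes in brightness, and the share that brightness or the place of a probe set along its mRNA has in these counts was not tested.

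Among these genes, Ttk and Bub3 each had a dim second probe set. That of Ttk rose from 43.2–73.4 to 80.1–136 (log2 fold change 0.61, SE 0.12), but was not called on the hybridization controls, while the bright one fell. That of Bub3 went from 164–232 to 46.8–252 (−0.73, limma adjusted p = 0.0420). This call held without amplified replicate 3, 6 or 7 or nonamplified replicate 3, ended without any of the other 12 arrays (limma adjusted p up to 0.0818), and was kept under no scaling but that on the hybridization controls.

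Calls of bright and dim member probe sets were split at a nonamplified mean of 300. Of 50 at or above it, 20 were higher and 14 (28.0%) lower; the log2 fold change had a median of 0.31. All 6184 tested probe sets as bright were 30.4% higher and 35.0% lower (median −0.13). Of the 28 dimmer members, 4 (14.3%) were higher and 18 (64.3%) lower, and all 20838 such probe sets were 23.0% higher and 32.2% lower. The 4 include the Top2a probe set that passed the filter only through its amplified values. The medians of the dimmer ones were −1.36 for the members and −0.18 for all. The contrast in direction was not kept after quantile normalization. It gave 6 higher and 19 lower among the bright members and 5 and 16 among the dim ones (medians −0.25 and −1.03). All 6184 bright probe sets then gave 918 and 3140 (median −0.62), and all 20838 dim ones 7364 and 4853 (median 0.13). On the hybridization controls the member counts were 12 and 16 for the bright and 2 and 21 for the dim. All probe sets gave 1022 and 2721 for the bright and 2514 and 9488 for the dim on these controls. The same nonamplified values enter the split and the fold change, so these counts are a description.

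**Figure D3:**
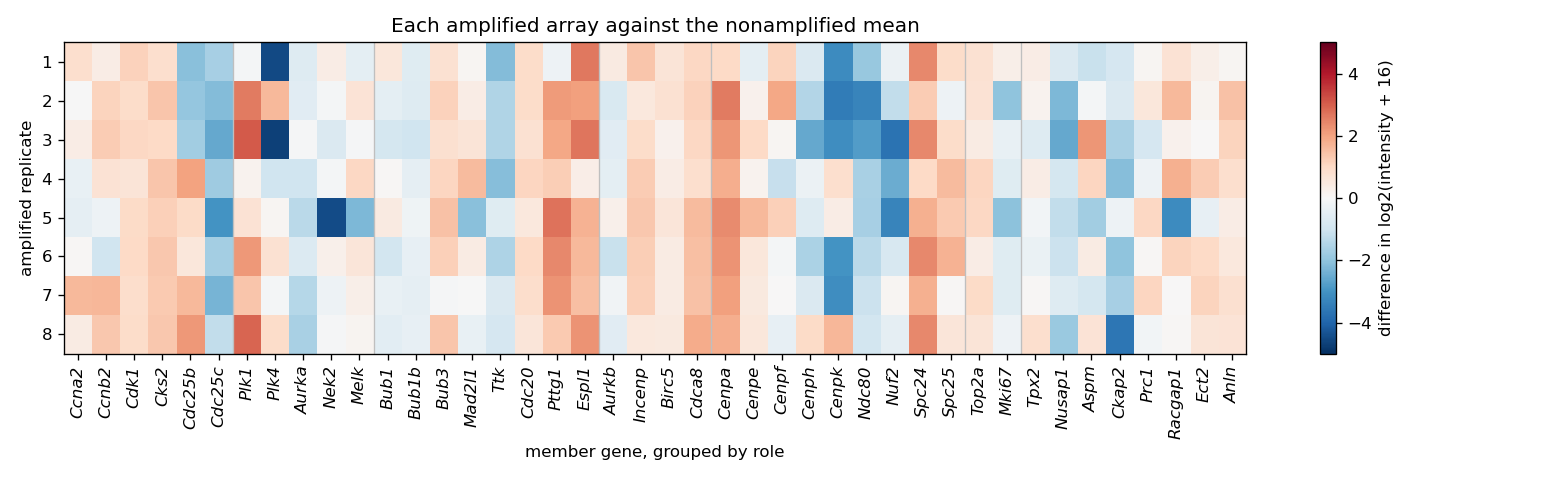
Difference of each amplified array (rows, replicates 1 to 8) from the nonamplified mean for each member gene (columns, by role), in log2(intensity + 16), at the probe set brightest on nonamplified arrays. Cells run from −4.66 (Plk4, replicate 3) to 3.06 (Plk1, replicate 3); Cdk1, Cks2 and Cdc20 are evenly red, while Plk4, Nek2, Cenpk and Cdc25b change colour between arrays.

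Spread between replicates was larger after amplification for all 42 members at the probe set brightest on nonamplified arrays. The SD of log2(intensity + 16) over 8 arrays ran from 0.040 to 0.14 without amplification and from 0.14 (Cdk1) to 2.43 (Plk4) with it. Its median was 0.059 without and 0.67 with amplification for the members, and 0.12 and 0.60 for all genes. Cdk1, Birc5, Cdc20 and Cks2 were the steadiest, with amplified SDs of 0.14, 0.18, 0.19 and 0.20, and their highest array exceeded their lowest by factors of 1.42 to 1.49. Among further probe sets, amplified SDs were 0.35 and 0.34 for Cdc20 and 0.31 for Cks2. The second Cenpk probe set had a smaller SD with amplification (0.13) than without (0.26). Cdc25b, Cenpk and Plk4 varied most, with SDs of 1.83, 2.16 and 2.43, and their lowest arrays read 8.46, 1 and 2.13, near the floor of the table. No amplified array stood apart for all members: the median difference from the nonamplified mean over the 42 genes ran from 0.091 (replicate 7) to 0.59 (replicate 8).

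**Figure D4:**
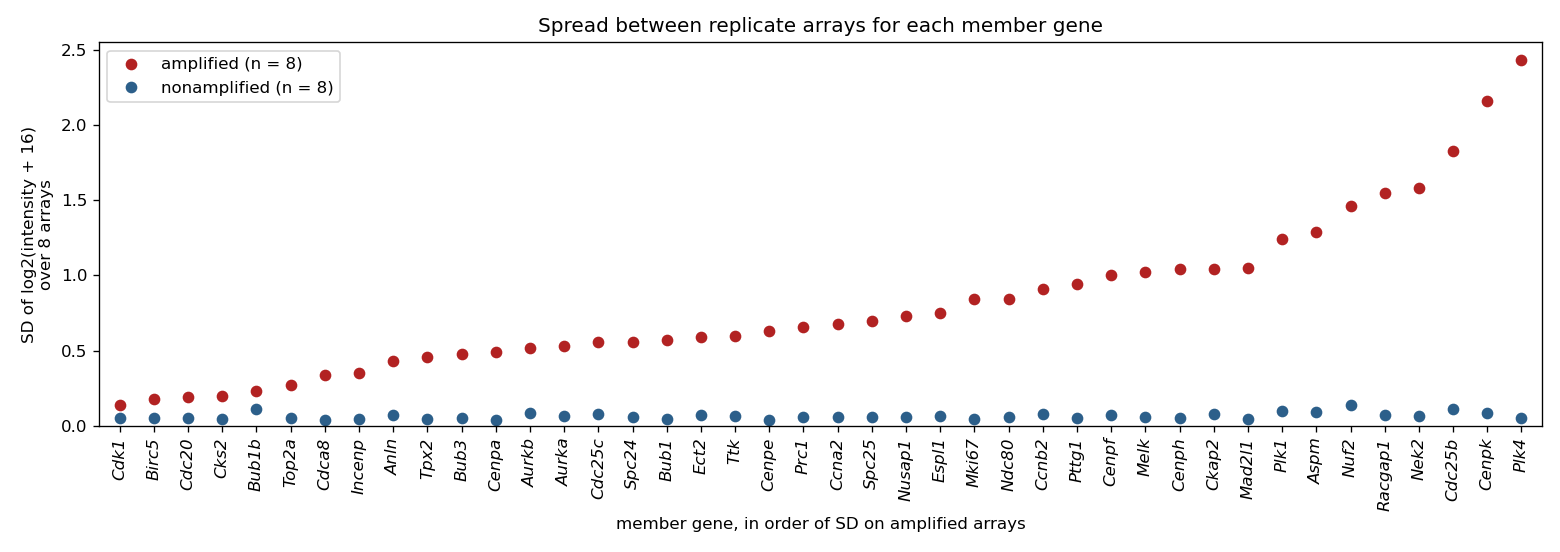
SD of log2(intensity + 16) over the 8 amplified (red) and 8 nonamplified (blue) arrays for each member gene, in order of the amplified SD. Each gene is at its probe set brightest on nonamplified arrays. Blue points stay at or under 0.14, while red points run from 0.14 for Cdk1 to 2.43 for Plk4.

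Loss of signal was counted as dropouts: a probe set whose nonamplified mean was above the median of all was called dropped out on an array where it lay under that array's 25th percentile. Of the 92 member probe sets 74 were above that median. On an amplified array 4 to 10 of them dropped out (9.46% ± 2.98, SD, n = 8), against 14.5% ± 0.796 (SD, n = 8) of all probe sets above the median. On nonamplified arrays 0 of the 74 did, and at most 0.102% of all. Tested member probe sets were brighter than all tested ones, with median nonamplified intensities of 471 and 109. The part of brightness in the lower dropout share of the members was not tested. Over the 8 amplified arrays 55 member probe sets never dropped out, 19 did on some arrays and 0 on all 8. The third Plk4 probe set dropped out on 7 arrays, the second Anln probe set on 6, and the brightest Cenpk probe set and 1 of Cenpf on 5. The second Anln probe set spanned 2.41 to 246 with amplification around a nonamplified range of 56.3 to 73.9, and did not pass (−1.11, limma adjusted p = 0.0821). It passed without amplified replicate 4 (−1.42, limma adjusted p = 0.0144) or 5 (−1.50, limma adjusted p = 0.00371).

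Other genes of the mitotic pathway were taken from a list of 85, chosen by function, of which 82 had a tested probe set. Their calls were 18 higher (22.0%) and 25 lower (30.5%), near the 23.8% and 29.9% of all genes, and 39 did not pass. The log2 fold change had a median of −0.28 over the 82 genes. The brightest without amplification were Ube2s and Ube2c, the enzymes that hand ubiquitin to the APC/C, Cks1b, the sister of Cks2, Anapc5, an APC/C subunit, Cdca5, the cohesin protector sororin, and Psrc1, a spindle protein. Ube2s (0.64), Ube2c (0.97), Cks1b (0.66), Cdca5 (1.09) and Psrc1 (0.61) were higher, and Anapc5 did not pass (−0.44, limma adjusted p = 0.0625). After quantile normalization none of these 5 was called higher, and Cks1b (−0.20) and Anapc5 (−1.17) were called lower. On the hybridization controls Cdca5 alone of the 5 stayed higher and Anapc5 was again lower (−0.86). The largest increases were in Cenpw, a histone-fold protein of the inner kinetochore, from 665 ± 34.3 to 3070.1 ± 1128 (SD, n = 8 each; 2.09), and in Mis18a, which helps to load Cenpa, from 424 ± 12.2 to 1582 ± 475 (1.80). The largest decreases were in Oip5, the partner of Mis18a, from 308 ± 26.5 to 15.0 ± 22.8 (−3.66), and in Cdca2, which targets a phosphatase to chromosomes, from 453 ± 27.6 to 26.2 ± 10.1 (−3.51). These 4 calls held under all 5 scalings, so that Mis18a and Oip5, which act in the same loading complex, were measured in opposite directions.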

How the data were processed

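The authors deposited a single table of linear intensity values, with a row for each probe set and a column for each array. Targets were biotinylated cRNA made with the Affymetrix one-cycle assay, per the labels' protocols. How probe sets were summarised and arrays scaled is not given in the sources used here. The authors' values were used as deposited. Of 45101 probe sets, 64 controls were left out. Gene symbols came from the platform annotation, updated by gene identifier through RefSeq (GRCm38.p6): 34945 probe sets had 1 symbol, 932 several and 9160 none here.

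Values were taken as log2(intensity + 16). Probe sets whose mean of these over 16 arrays exceeded the 40th percentile were tested (27022). The 2 groups were compared in limma 3.58.1 (R 4.3.3; lmFit, then eBayes) with no covariate, and 2-sided p-values were adjusted by Benjamini-Hochberg over the 27022, with 0.05 as the threshold. The fit was tested on simulated data. All members are accounted for, each at its probe set of the highest nonamplified mean; of the other pathway genes, the 6 brightest and the 2 largest called changes in each direction are named. Members and lists were chosen with earlier results of these data known. Alternatives were pseudocounts of 1 and 64, 4 scalings, filters, probe set types and choice, weights per group, the replicate number as a block, other dropout percentiles and leaving out each array. No technical batch could be tested. Figures used matplotlib 3.10.9 in Python 3.11.15.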

Additional observations from a re-analysis of the deposited data

Results flagged for a closer look

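For each of the 42 members, the highest and lowest of the 8 values of each group were examined on the log2 scale. An array was listed where its gap to the nearest other, divided by the range of the 8, exceeded Dixon's 95% critical value. Chance gives about 1 in 20, or 4.20 of the 84 groups examined, and 5 were found. Of these, 3 were low values of amplified replicate 5: Nek2 at 11.1 (next lowest 343), Racgap1 at 49.7 (next 564) and Melk at 104 (next 392). Bub3 was low on amplified replicate 7, at 1572 (next 2762). Aurkb was high on nonamplified replicate 3, at 389 (next highest 348).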

How the results depend on the processing

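Counts of called member probe sets (56 as reported), member genes (27) and other mitotic genes (43) stayed within 1.5 times under the alternatives run. Their split by direction moved with the scaling and, for member genes, with the removal of _x_at and _s_at probe sets. Quantile normalization gave 11 member probe sets, 6 member genes and 10 other genes higher, and scaling on the hybridization controls 14, 11 and 9. Over all 27022 tested probe sets these scalings gave 8282 and 3536 higher, against 6677 as reported. Lower member genes were 6 when centred on the median. With _x_at and _s_at probe sets removed, 12 of 41 member genes were higher and 17 lower, against 17 and 10 as reported. Directions turned after quantile normalization for Anln (−0.028), Birc5 (−0.30), Cdc20 (−0.017), the second Cdca8 probe set (−0.31), the second Cenpk probe set (0.37), Ect2 (−0.24), Top2a (−0.12), Tpx2 (−0.48) and the dimmest Tpx2 probe set (0.014), and when centred on the median for the same Cenpk (0.38) and dimmest Tpx2 (0.023) probe sets. That Tpx2 probe set (−0.39 as deposited) also lost its call when any array but amplified replicates 3, 6 and 8 and nonamplified replicate 7 was left out, and with weights per group (limma adjusted p = 0.218). Weights per group brought Ccnb2, Cenpk and the second Anln and Racgap1 probe sets past the threshold. Sign changes of values that did not pass in either setting are not counted here. With the probe set of the highest mean over the 16 arrays, Aurkb (0.57) and Bub1b (0.69) turned. With the replicate number as a block, 52 member probe sets, 24 member genes and 43 other genes were called, and 4 of 78 member probe sets lost their call (the second of Bub3, Cenpe, Cenph and Ect2). Nothing pairs same-numbered arrays but the number: their deviations from the group means correlated at −0.0078 to 0.0176, 0 of 8 over 0.1, and 3 of 8 amplified arrays correlated best with their own number. Leaving out each array gave 51 to 58 member probe sets (22 to 25 higher, 28 to 33 lower), 24 to 30 member genes (15 to 18 higher, 8 to 12 lower) and 42 to 47 other genes (17 to 20 higher, 25 to 28 lower). Without amplified replicate 3 or 4 the second Cdca8 probe set passed (0.39 in both), as did the second Racgap1 probe set without replicate 1 (0.78). Dropouts were 1.86% of the 74 with a line at the 10th percentile and 16.4% at the 40th. The cause of these changes was not tested. Values near the floor of 1 have no reliable order.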
